A study of Mus musculus with 12 samples.

Results

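The Thy-1- and Thy-1+ fractions of day 6 of reprogramming were compared, 1 library for each fraction out of 12 libraries in the series, over the 11931 of 24098 genes that reached an FPKM of 1 in either fraction. FPKM is a fragment count scaled to the length of the transcript and to the size of the library. The cells were mouse embryonic fibroblasts (MEFs) of embryos that carry an IRES-EGFP reporter behind Oct4 (Pou5f1), infected with pMXs retroviruses for Oct4, Sox2, Klf4 and c-Myc (OSKM). They were grown without feeder cells in a medium with serum replacement, LIF, ascorbic acid, bFGF, CHIR99021 (an inhibitor of GSK3) and N-2 supplement. On day 6 after induction the cells were sorted with an antibody to Thy-1 into D6T- (Thy-1-) and D6T+ (Thy-1+), which the study regards as the route that leads to iPSCs and the route that fails. Both fractions came from cultures with the reporter that had been infected with the 4 viruses. The number of embryos, cultures or sorts behind a library is not given in the sources used here. D0 (MEFs), D3 (unsorted cells of day 3), the Thy-1 fractions of day 9 (D9T- and D9T+) and iPSCs served as points of reference.

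Thy-1 (CD90) is a surface glycoprotein of fibroblasts that is lost early from those cells that later become pluripotent. The first steps of reprogramming from fibroblasts are a loss of the mesenchymal programme of matrix, contractile and signalling genes, a faster cell cycle, and a mesenchymal-to-epithelial transition, in which E-cadherin, EpCAM and junction proteins appear. Most of the core pluripotency network is known to come on later than these steps.

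With 1 library a fraction there was no replicate and no test, and every difference below is a difference between 2 libraries. The cells behind them were sorted on Thy-1, so the level of Thy1 is a check of the sort and not a result. Differences are D6T- minus D6T+ on the log2(FPKM + 1) scale, which understates the change of genes near 1 FPKM, and a gene is called higher or lower when this difference is at least 1, that is 2-fold. The authors' table gives each FPKM an interval whose half-width was at the median 100.1% of the FPKM in D6T- and 100.0% in D6T+ over genes at 10 FPKM or more. The intervals of the 2 fractions overlapped for all of the 11931 genes, Thy1 included. The summed FPKM was 514910 in D6T- and 539242 in D6T+, and from the steps between low values the depth of D6T- was estimated at 1.24 times that of D6T+.

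The fractions differed more by genes that were low in D6T- than by genes that were high in it. In D6T-, 1342 genes (11.2% of those compared) were at least 2-fold lower and 415 genes (3.48%) at least 2-fold higher than in D6T+. These shares are the background for every count of list members below. At 4-fold the numbers were 349 lower and 41 higher, and at 8-fold 57 lower and 8 higher. All 8 of these higher genes were microRNA or snoRNA genes listed at 0 in D6T+. The largest higher difference without small RNA genes was 2.81 (Msc), which is under 8-fold. The median over all genes compared was 0.02, so the bulk of the transcriptome was centred. Just inside the 2-fold limit were Sned1 (9.12 FPKM in D6T-, 4.05 FPKM in D6T+) on the higher side and Rrbp1 (80.1 and 161 FPKM) on the lower side, and just outside it were 4930429B21Rik (3.34 and 1.17 FPKM) and Eln (0.105 and 1.21 FPKM). In bulk RNA, fewer cells that express a gene and less of its RNA in each cell cannot be told apart.

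**Figure D1:**
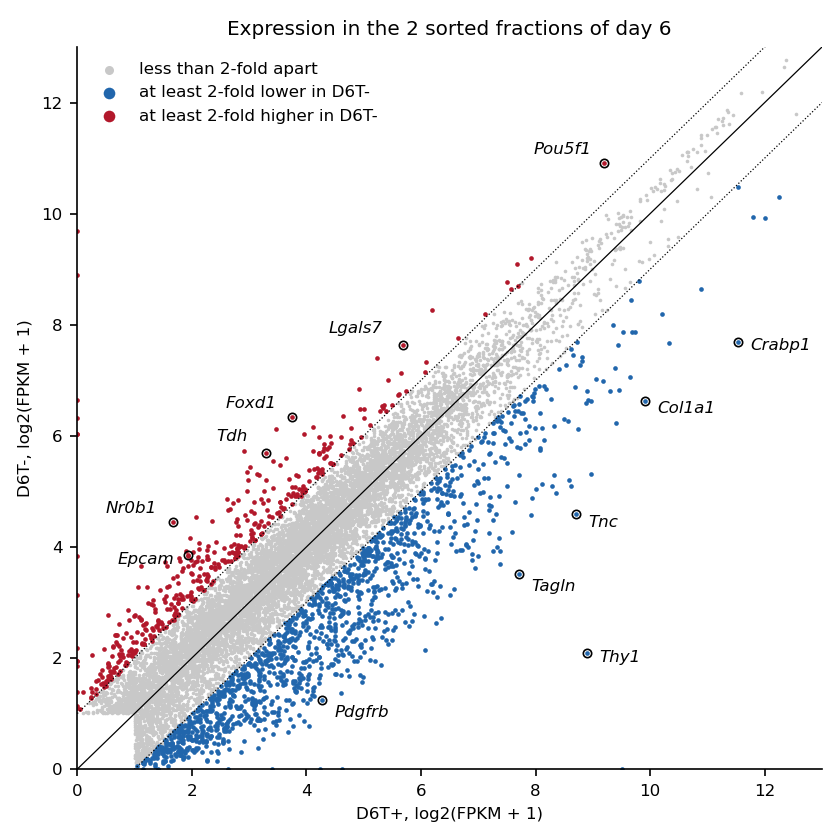
Expression of the 11931 genes compared in D6T+ (x axis) against D6T- (y axis), both as log2(FPKM + 1), 1 point per gene. The solid line marks equal values and the dotted lines a 2-fold difference. The 1342 genes lower in D6T- (blue) outnumber the 415 higher genes (red), and Thy1 lies farthest below the lines among the genes named in the plot.

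The sort was visible in the RNA of its marker. Thy1 (chromosome 9, 43851467 to 43856662, plus strand, mm9) had an FPKM of 477 in D6T+ and 3.24 in D6T-, next to 669 in D0 and 123 in D3. D6T- thus held 0.679% of the Thy1 level of D6T+. Among the 4196 genes at 20 FPKM or more in D6T+, no other transcript longer than a small RNA was as unequal. Of these genes, 39 were in D6T- under 10% and 181 under 20% of their D6T+ level. Closest to Thy1 was Tagln at 4.99%. Of 10 genes taken as marks of fibroblast identity, 10 were at 1 FPKM or more in D6T+ and 8 in D6T-. In D6T-, 8 of the 10 were at least 2-fold lower, against 11.2% of all genes compared. Thy1 is among the 10 and among these 8, and the sort itself fixed its place there. Lum (lumican) was low in both, at 0.107 FPKM in D6T- against 1.21 in D6T+. Other surface proteins used to follow fibroblasts were lower as well. The receptor Pdgfrb was at 1.36 FPKM in D6T- against 18.4 in D6T+, and Pdgfra at 0.968 FPKM in D6T- against 13.6 in D6T+. The adhesion molecule Vcam1 was at 12.1 FPKM in D6T- against 51.0 in D6T+. Cd44 and Icam1, which separate later stages of reprogramming, and Ly6a (Sca-1) stayed within 2-fold, with differences of -0.73, -0.61 and -0.28. In the opposite direction, Epcam was at 13.4 FPKM in D6T- against 2.84 in D6T+, and the ecto-nucleotidase gene Nt5e (CD73) at 44.7 FPKM in D6T- against 20.4 in D6T+.

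The 4 reprogramming factor genes were all higher in D6T-. Pou5f1 was at 1935 FPKM in D6T- against 587 in D6T+, which is 3.297-fold. Myc was 2.68-fold higher (542 against 202 FPKM), Klf4 2.42-fold (587 against 242 FPKM) and Sox2 2.41-fold (436 against 181 FPKM). In D0 they were at 1.99, 27.3, 11.7 and 1.21 FPKM, and in D3 at 858, 378, 359 and 427 FPKM in the same order. D3 lay between the 2 fractions for all 4 genes. Reads of the viral coding sequences cannot be told from reads of the endogenous genes in these values. On day 9 the differences between fractions were smaller, at 0.78 for Pou5f1, 0.48 for Myc, 0.17 for Klf4 and -0.22 for Sox2.

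Genes of the extracellular matrix were lower in D6T- in most cases. Collagens were taken as a list of 9 fibrillar chains and a list of 15 other collagens. All 13 of the other collagens that passed the filter were at least 2-fold lower in D6T-, against 11.2% of all genes compared. Their median was -2.34. So were 6 of the 8 fibrillar chains that passed, with a median of -2.05. Col25a1, a collagen outside both lists, was higher, at 4.75 FPKM in D6T- against 1.27 in D6T+. Col1a1, the main chain of type I collagen, was at 98.2 FPKM in D6T- against 960.0 in D6T+, against 3453 FPKM in D0 and 798 FPKM in D3. Its partner chain Col1a2 was at 95.2 FPKM in D6T- against 471 in D6T+, and Col3a1 at 198 FPKM in D6T- against 689.9 in D6T+. Col6a2 of the microfibrillar type VI collagen was at 18.0 FPKM in D6T- against 145 in D6T+. The basement membrane chains Col4a1 and Col4a2 were lower by less, at -1.40 and -1.49. Col2a1, the cartilage collagen, was the exception among the listed collagens at 3.84 FPKM in D6T- against 1.69 in D6T+, a difference of 0.85.

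The enzymes that shape collagen followed in part. Of 19 folding and crosslinking genes 12 were lower and 0 higher, with a median of -1.25. Of the lysyl oxidases, which crosslink collagen and elastin, Loxl1 was at 11.4 FPKM in D6T- against 122 in D6T+, Loxl2 at 7.51 FPKM in D6T- against 76.9 in D6T+ and Lox at 3.56 FPKM in D6T- against 25.2 in D6T+, whereas Loxl4 was within 2-fold, at -0.47. The general collagen hydroxylases and chaperones differed less. Serpinh1 (HSP47) was at 439 FPKM in D6T- against 894 in D6T+, and Plod2, a lysyl hydroxylase, at 8.11 FPKM in D6T- against 7.91 in D6T+, which is nearly equal.

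Noncollagenous matrix proteins were lower in 21 of 29 cases (32 listed), with a median of -1.56. Tnc (tenascin-C) was at 23.001 FPKM in D6T- against 416 in D6T+, and the proteoglycan Bgn (biglycan) at 39.0 FPKM in D6T- against 503 in D6T+. Thbs1 (thrombospondin 1) was at 36.0 FPKM in D6T- against 382 in D6T+, and the proteoglycan Dcn (decorin) at 3.99 FPKM in D6T- against 44.0 in D6T+. Nid1, a linker of basement membranes, was at 74.0 FPKM in D6T- against 674 in D6T+, whereas its paralog Nid2 was at 22.1 FPKM in D6T- against 19.5 in D6T+. Fn1 (fibronectin), at 205 FPKM in D6T- against 259 in D6T+, and the laminin chain Lamc1, at 74.3 FPKM in D6T- against 78.1 in D6T+, were within 2-fold. Fbn2 (fibrillin 2) was the single member that was higher, at 54.1 FPKM in D6T- against 18.7 in D6T+, while Fbn1 was lower, at 61.6 FPKM in D6T- against 184 in D6T+. The fibrillin genes were thus split between the fractions.

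Matrix proteases and their inhibitors were lower in 15 of 18 cases, with a median of -1.89 and none above 0. The plasminogen activators Plat and Plau were at 8.496 and 6.61 FPKM in D6T- and at 94.2 and 55.2 FPKM in D6T+. Among metalloproteases Mmp2 was at 77.9 FPKM in D6T- against 362 in D6T+ and Mmp3 at 2.87 FPKM in D6T- against 28.4 in D6T+, and among their inhibitors Timp1 was at 234 FPKM in D6T- against 853 in D6T+ and Timp2 at 69.1 FPKM in D6T- against 427 in D6T+. Proteases and inhibitors were therefore lower side by side.

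Contractile genes followed the matrix genes. Of 20 genes of smooth muscle type actin, myosin, calponin and tropomyosin 15 were lower and none was above 0, with a median of -1.71. Tagln (SM22; chromosome 9, 45737711 to 45744141, minus strand, mm9) was at 10.4 FPKM in D6T- against 208 in D6T+, the largest difference among all ranked genes that are not small RNAs. Myl9, a myosin light chain, was at 5.21 FPKM in D6T- against 76.1 in D6T+, and Acta2, the smooth muscle actin of myofibroblasts, at 14.2 FPKM in D6T- against 166 in D6T+. Tpm1 and Tpm2, tropomyosins of stress fibres, were at -2.20 and -2.52. The nonmuscle forms were closer to equal, with -0.80 for Myh9, -0.99 for Flna and -0.29 for Tagln2. Targets of SRF and YAP, which respond to actin tension, were lower in 8 of 11 cases (median -1.63). Ankrd1 was at 2.26 FPKM in D6T- against 29.7 in D6T+ and the YAP target Cyr61 at 105 FPKM in D6T- against 243 in D6T+, while Ctgf, another YAP target, was at 6.01 FPKM in D6T- against 9.56 in D6T+ and the gene of SRF itself at 23.5 FPKM in D6T- against 26.4 in D6T+.

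**Figure D2:**
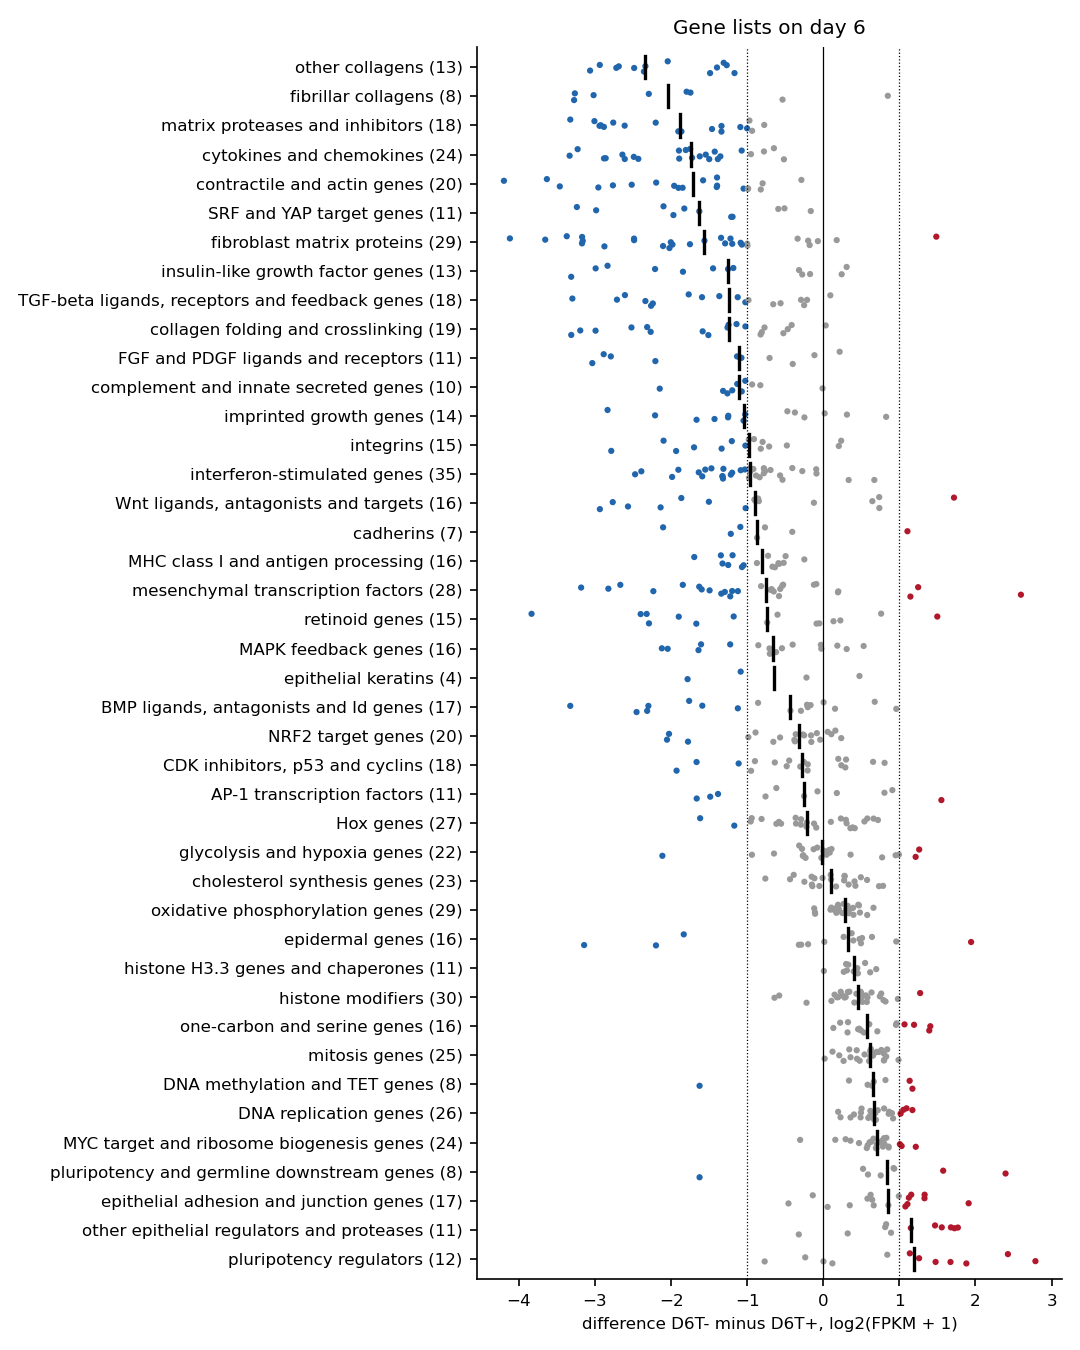
Differences between D6T- and D6T+ on the log2(FPKM + 1) scale (x axis) for the genes of 42 lists (y axis, with the number of genes that passed the filter in brackets). Each point is a gene, coloured blue when at least 2-fold lower and red when at least 2-fold higher, and black bars are list medians, which run from -2.34 for the list of other collagens to 1.20 for pluripotency regulators.

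Mesenchymal transcription factors were less uniform than the matrix genes. Of 28 factors 13 were lower and 3 higher, with a median of -0.76, which was -1.29 with a pseudocount of 0.1 and -1.16 with the filter at 5 FPKM. The basic helix-loop-helix factor Twist2 was at 33.3 FPKM in D6T- against 310.5 in D6T+, whereas Twist1 was at 19.7 FPKM in D6T- against 35.5 in D6T+ and stayed within 2-fold. Snai2 (Slug), a repressor of E-cadherin, was at 0.741 FPKM in D6T- against 10.1 in D6T+, and Snai1 (Snail) at 8.82 FPKM in D6T- against 23.9 in D6T+. Zeb1 and Zeb2, repressors of the same kind, were at -1.20 and -1.12. Prrx1, a homeobox factor of limb mesenchyme, was at 18.1 FPKM in D6T- against 52.8 in D6T+. Runx2, the osteoblast factor, was at 1.66 FPKM in D6T- against 8.57 in D6T+. A forkhead, a homeobox and a zinc finger gene ran the other way. Foxd1 was at 80.2 FPKM in D6T- against 12.4 in D6T+, against 0.258 FPKM in D0 and 0.290 FPKM in iPSCs, Meox2 at 7.34 FPKM in D6T- against 2.51 in D6T+, and Gli1, a target of Hedgehog signalling, at 2.38 FPKM in D6T- against 0.527 in D6T+.

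Ligands and receptors of the TGF-beta family were mostly lower in D6T- (11 of 18, none higher, median -1.25). TGF-beta signals through a type I and a type II receptor to SMAD proteins and maintains mesenchymal genes. Of the ligands, Inhbb was at 5.72 FPKM in D6T- against 65.1 in D6T+, Tgfb1 at 4.89 FPKM in D6T- against 28.8 in D6T+ and Inhba at 4.54 FPKM in D6T- against 25.6 in D6T+. The type II receptor Tgfbr2 was at 45.0 FPKM in D6T- against 156 in D6T+, whereas the type I receptor Tgfbr1 was at 1.53 FPKM in D6T- against 2.10 in D6T+. Smad7, an inhibitor that the pathway itself induces, was at 2.29 FPKM in D6T- against 5.497 in D6T+. Of 17 BMP and Id genes 7 were lower and 0 higher (median -0.43), and the median was -1.76 over those at 5 FPKM or more in either fraction. The secreted antagonist Grem1 had the largest difference, at 15.0 FPKM in D6T- against 159 in D6T+. Bmp4 was at -0.29 and Id1 at -0.21, both within 2-fold, and Id3 was at -1.59.

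Other growth factor systems were lower as well. In the FGF and PDGF list 7 of 11 genes were lower (median -1.10, and -2.21 with the filter at 5 FPKM), including Fgf7 at 2.29 FPKM in D6T- against 21.8 in D6T+ and the receptor Fgfr1 at 43.0 FPKM in D6T- against 91.8 in D6T+. In the insulin-like growth factor list 8 of 13 were lower (median -1.25). Igf2, a fetal growth factor, was at 5.13 FPKM in D6T- against 27.4 in D6T+, and its binding proteins Igfbp7 and Igfbp4 at 14.3 and 33.9 FPKM in D6T- against 151 and 277 FPKM in D6T+. Igf1r, the receptor, was at -0.32. Of 16 Wnt genes that passed the filter (26 listed) 7 were lower and 1 higher (median -0.90, and -1.66 with a pseudocount of 0.1). Wnt5a, a noncanonical ligand, was at 3.56 FPKM in D6T- against 30.1 in D6T+, and the antagonist Dkk2 at 2.43 FPKM in D6T- against 25.3 in D6T+. Axin2, a target of canonical signalling, was at 0.357 FPKM in D6T- against 1.44 in D6T+. Sfrp4, a secreted antagonist, was higher, at 8.70 FPKM in D6T- against 1.95 in D6T+.

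Secreted immune mediators were lower almost throughout. Of 24 cytokine and chemokine genes that passed the filter (27 listed) 20 were lower and none was above 0, with a median of -1.74. The monocyte attractants Ccl2 and Ccl7 were at 112 and 117 FPKM in D6T- and at 704 and 413 FPKM in D6T+. Cxcl12, a ligand made by stromal cells, was at 1.59 FPKM in D6T- against 23.3 in D6T+, and Csf1, the macrophage growth factor, at 29.3 FPKM in D6T- against 163 in D6T+. Il6 was at 0.503 FPKM in D6T- against 4.06 in D6T+. Lif, which is also in the medium, was at 8.75 FPKM in D6T- against 15.7 in D6T+ and stayed within 2-fold.

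Interferon-stimulated genes were lower in 16 of 35 cases, none was at least 2-fold higher, and the median was -0.96. Isg15, a ubiquitin-like modifier, was at 11.1 FPKM in D6T- against 66.1 in D6T+. Ifit3 was at 1.65 FPKM in D6T- against 12.9 in D6T+, and Irf7, a factor of the interferon response, at 7.67 FPKM in D6T- against 23.03 in D6T+. Ifitm3 was the most abundant of the list, at 745 FPKM in D6T- against 1267 in D6T+, and within 2-fold. Only Oas1g and Oas2 were above 0 in this list, at 0.33 and 0.67. In the list of MHC class I and antigen processing 7 of 16 were lower and all 16 were below 0 (median -0.80). B2m, the light chain of MHC class I, was at 117 FPKM in D6T- against 281 in D6T+, and Psmb8, an immunoproteasome subunit, at 13.7 FPKM in D6T- against 46.8 in D6T+. Complement and innate secreted genes were lower in 7 of 10 cases (median -1.10), with C3 at 2.28 FPKM in D6T- against 6.86 in D6T+.

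Adhesion receptors were lower in part. Of 15 integrins 7 were lower and none higher (median -0.98). Itga5, the alpha chain of the fibronectin receptor, was at 26.7 FPKM in D6T- against 105 in D6T+, whereas Itgb4 and Itgb5 were at 0.20 and 0.24. Of 7 cadherins that passed the filter (11 listed) 3 were lower and 1 higher, with 6 below 0 and a median of -0.87, which was -1.55 with a pseudocount of 0.1. The lower ones were the mesenchymal Cdh11 (13.8 FPKM in D6T- against 62.7 in D6T+), Cdh2 or N-cadherin (10.3 FPKM in D6T- against 23.1 in D6T+) and Cdh6 (1.35 FPKM in D6T- against 4.45 in D6T+), and the higher one was Cdh1 or E-cadherin.

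AP-1 factors were split. Of 11 members 3 were lower and 1 higher, against 11.2% and 3.48% of all genes compared, with a median of -0.25. The Fos-related genes Fosl1 and Fosl2 were at 22.4 and 9.91 FPKM in D6T- and at 64.7 and 33.6 FPKM in D6T+. Fosb was at 26.8 FPKM in D6T- against 8.48 in D6T+ and Fos at 141 FPKM in D6T- against 74.9 in D6T+. Of these 4 genes Fos stayed within 2-fold. Jun was at 44.8 FPKM in D6T- against 69.2 in D6T+ and Junb at 139 FPKM in D6T- against 165 in D6T+. Feedback genes of MAPK signalling were lower in 5 of 16 cases, against 11.2% of all genes compared, and higher in none (median -0.66). The phosphatase gene Dusp4 was at 15.6 FPKM in D6T- against 50.8 in D6T+. The inhibitor Spry4 was at 16.6 FPKM in D6T- against 14.5 in D6T+ and the early gene Egr1 at 148 FPKM in D6T- against 102 in D6T+.

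Epithelial genes were more often higher than lower in D6T-, and mostly at low levels. Of 17 adhesion and junction genes that passed the filter (22 listed) 7 were at least 2-fold higher, against 3.48% of all genes compared, none was lower, and the median was 0.86. A gene can pass the filter through D6T- alone, so this count and median are a description. Epcam was at 13.4 FPKM in D6T- against 2.84 in D6T+, against 1.17 FPKM in D3, 55.2 FPKM in D9T- and 79.3 FPKM in iPSCs. Cdh1 was at 6.05 FPKM in D6T- against 2.27 in D6T+, against 3.41 FPKM in D3, 25.8 FPKM in D9T- and 203 FPKM in iPSCs. Both genes were thus well below their later levels in the fraction where they were higher. The desmosome genes Dsp, Pkp1 and Pkp2 were at 40.7, 25.3 and 20.5 FPKM in D6T- and at 15.6, 10.8 and 7.54 FPKM in D6T+. Jup (plakoglobin), at 39.9 FPKM in D6T- against 44.0 in D6T+, and F11r (JAM-A), at 16.6 FPKM in D6T- against 16.0 in D6T+, were close to equal.

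Regulators of the epithelial state were higher in 6 of 11 cases that passed the filter (21 listed), against 3.48% of all genes compared. Their median was 1.15, which was 1.74 with a pseudocount of 0.1. Here too a gene can pass the filter through D6T- alone, so the count and median are a description. Esrp2, a splicing factor of epithelial cells, was at 9.87 FPKM in D6T- against 2.19 in D6T+, and the ETS factor Elf3 at 14.4 FPKM in D6T- against 3.82 in D6T+. The protease inhibitors Spint1 and Spint2 were at 15.1 and 50.6 FPKM in D6T- and at 3.89 and 17.6 FPKM in D6T+. Grhl1, a grainyhead factor, was at 4.13 FPKM in D6T- against 0.744 in D6T+ and passed the filter only through D6T-. Of 4 simple keratins that passed the filter (6 listed) 2 were lower and none higher, with a median of -0.65, which was 0.53 on day 9. Krt8 was at 58.9 FPKM in D6T- against 42.1 in D6T+, but its partner Krt18 was at 6.21 FPKM in D6T- against 23.8 in D6T+, Krt19 was at 25.1 FPKM in D6T- against 29.4 in D6T+, and Krt20 at 2.52 FPKM in D6T- against 6.48 in D6T+. In the epidermal list 1 gene was higher and 3 were lower of 16, against 3.48% and 11.2% of all genes compared (median 0.32). Lgals7 (galectin-7) was at 197 FPKM in D6T- against 50.6 in D6T+, while the cornified envelope genes Sprr1a, Sprr1b and Ivl were lower, Sprr1a at 13.4 FPKM in D6T- against 126 in D6T+.

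Pluripotency genes were partly measurable on day 6, and more of those were higher than lower in D6T-. Of 27 regulators listed, 15 were under 1 FPKM in both fractions, among them Nanog (0.735 FPKM in D6T-, 0.2997 FPKM in D6T+), Esrrb (0.174 and 0.0986 FPKM) and Zfp42 (0.356 and 0.0441 FPKM). Of the 12 that passed the filter 7 were higher, against 3.48% of all genes compared, and none lower, with a median of 1.20. A gene can pass the filter through the fraction where it is high alone, so this count and median are a description. Nr0b1 (Dax1; chromosome X, 83437103 to 83441286, plus strand, mm9) was at 20.9 FPKM in D6T- against 2.17 in D6T+, with 0.0559 FPKM in D0, 0.654 in D3 and 90.9 FPKM in iPSCs. L1td1, an RNA-binding protein of pluripotent cells, was at 42.4 FPKM in D6T- against 7.08 in D6T+, against 6.91 FPKM in D3 and 121 FPKM in iPSCs. The zinc finger factor Sall4 was at 5.12 FPKM in D6T- against 0.663 in D6T+ and passed the filter only through D6T-. Klf2, Klf5 and Etv4 were close to equal, with differences of 0.12, -0.24 and 0.00, and Tbx3 was at 3.47 FPKM in D6T- against 6.62 in D6T+.

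Among genes downstream of that network, 13 of 21 were under 1 FPKM in both fractions, and 2 of the other 8 were higher, against 3.48% of all genes compared. This count is likewise a description, because a gene can pass the filter through D6T- alone. Tdh, the threonine dehydrogenase of mouse pluripotent cells, was at 50.5 FPKM in D6T- against 8.79 in D6T+, against 419 FPKM in iPSCs. Gdf3, a ligand of the Nodal group, was at 5.47 FPKM in D6T- against 1.17 in D6T+. Dnmt3l, a cofactor of de novo DNA methylation, was lower, at 0.456 FPKM in D6T- against 3.49 in D6T+.

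Proliferation genes differed by small amounts in the same direction. All 26 of 26 DNA replication genes were above 0, with a median of 0.67, although only 4 reached 2-fold, against 3.48% of all genes compared. The helicase subunit genes Mcm5 and Mcm7 were at 92.5 and 142 FPKM in D6T- and at 44.1 and 65.8 FPKM in D6T+. Uhrf1, which links replication to DNA methylation, was at 86.4 FPKM in D6T- against 37.8 in D6T+. All 25 of 25 mitosis genes were above 0 as well (median 0.62), 24 of them when scaled by the median of ratios, and none reached 2-fold, with Mki67 at 29.0 FPKM in D6T- against 16.3 in D6T+ and Ccnb1 at 21.2 FPKM in D6T- against 11.4 in D6T+. Over all genes compared, 6143 of 11931 were above 0. Inhibitors of the cell cycle did not move as 1 group. Cdkn2b (p15) was at 15.2 FPKM in D6T- against 60.7 in D6T+ and Cdkn1c (p57) at 5.04 FPKM in D6T- against 18.2 in D6T+, whereas Cdkn1a (p21) was at 571 FPKM in D6T- against 658 in D6T+ and Cdkn2a at 169 FPKM in D6T- against 195.2 in D6T+. Ccnd1, the cyclin of early G1, was at 191 FPKM in D6T- against 370.3 in D6T+, and the other CDK inhibitor Cdkn1b (p27) at 11.8 FPKM in D6T- against 7.13 in D6T+.

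Genes of ribosome production and of nucleotide supply showed the same small shift. Of 24 MYC target and ribosome biogenesis genes 23 were above 0 (median 0.70). At least 2-fold higher were 3 of them, or 1 when scaled by the median of ratios, against 3.48% of all genes compared. Dkc1, a component of RNA pseudouridylation and telomerase complexes, was at 30.5 FPKM in D6T- against 12.57 in D6T+, Npm1 (nucleophosmin) at 415 FPKM in D6T- against 206 in D6T+ and Odc1, the rate-limiting enzyme of polyamine synthesis, at 82.8 FPKM in D6T- against 102 in D6T+. All 16 of 16 one-carbon and serine genes were above 0 and 4 at least 2-fold higher, against 3.48% of all genes compared (median 0.57). Gldc, of the glycine cleavage system, was at 7.79 FPKM in D6T- against 2.32 in D6T+, Shmt1 at 54.5 FPKM in D6T- against 20.1 in D6T+ and its mitochondrial counterpart Shmt2 at 184 FPKM in D6T- against 112 in D6T+. Phgdh, the first enzyme of serine synthesis, was at 155 FPKM in D6T- against 142 in D6T+. Oxidative phosphorylation genes were above 0 in 26 of 29 cases with none at 2-fold (median 0.29), and Atp5b was at 1354 FPKM in D6T- against 1062 in D6T+.

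Glycolysis and cholesterol synthesis genes did not separate the fractions as groups, and the listed NRF2 targets were shifted down in D6T- by a small amount. Glycolysis and hypoxia genes had a median of -0.01, which turned to 0.06 when both libraries were set to the same total FPKM. Gapdh was at 934 FPKM in D6T- against 907 in D6T+, but Hk2, the inducible hexokinase, was at 26.9 FPKM in D6T- against 10.6 in D6T+ and Adm (adrenomedullin) at 9.99 FPKM in D6T- against 46.6 in D6T+. None of 23 cholesterol synthesis genes was 2-fold apart (median 0.10). Of 20 listed NRF2 targets 16 were below 0 (median -0.31). Gpx2, an NRF2 target outside the list, was higher, at 28.0 FPKM in D6T- against 5.14 in D6T+. Against 11.2% of all genes compared, 3 of the 20 were at least 2-fold lower. These were Hmox1 at 129 FPKM in D6T- against 531 in D6T+, Nqo1 at 48.4 FPKM in D6T- against 168 in D6T+ and Srxn1 at 30.5 FPKM in D6T- against 130.0 in D6T+, genes that protect against oxidants.

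Chromatin genes were mostly above 0 at under 2-fold. Histone modifiers were above 0 in 27 of 30 cases (median 0.46), with Jarid2, a partner of the PRC2 complex, at 18.8 FPKM in D6T- against 7.21 in D6T+ and its catalytic subunit Ezh2 at 12.7 FPKM in D6T- against 5.94 in D6T+. The genes of histone H3.3 and its chaperones, the subject of the study, were above 0 in all 11 cases, or in 10 when scaled by the median of ratios, with none at 2-fold (median 0.40). H3f3a was at 108 FPKM in D6T- against 87.3 in D6T+, H3f3b at 180.3 FPKM in D6T- against 179 in D6T+, and the H3.3 chaperone Hira at 33.8 FPKM in D6T- against 20.5 in D6T+. Of the DNA methylation and TET genes, Dnmt1 was at 108 FPKM in D6T- against 60.8 in D6T+ and Tet2 at 7.70 FPKM in D6T- against 2.96 in D6T+, while Tet1 was under 1 FPKM in both, at 0.520 and 0.231 FPKM.

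The largest differences held further genes. Leaving out small RNA genes, the 20 largest on the lower side ran from -4.20 for Tagln to -3.31 for Igfbp7. Ptgis, the prostacyclin synthase, was at 3.43 FPKM in D6T- against 66.0 in D6T+. Crabp1, a retinoic acid binding protein, was the most abundant of them, at 206 FPKM in D6T- against 2953 in D6T+. Serpinf1 (PEDF) was at 33.3 FPKM in D6T- against 393 in D6T+, the semaphorin gene Sema7a at 5.58 FPKM in D6T- against 80.9 in D6T+, and Tac1, the precursor of substance P, at 2.67 FPKM in D6T- against 38.5 in D6T+. The sphingosine 1-phosphate receptor S1pr3 was at 1.95 FPKM in D6T- against 30.3 in D6T+, and Htra1, a secreted serine protease, at 22.7 FPKM in D6T- against 242 in D6T+.

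The 20 largest on the higher side ran from 2.81 for Msc to 2.08 for Bex4. Msc (musculin), a basic helix-loop-helix repressor, was at 51.7 FPKM in D6T- against 6.52 in D6T+. Dmrtc2, a DM domain factor known from the testis, was at 69.1 FPKM in D6T- against 10.1 in D6T+. Slc38a5 and Slc7a3, transporters of amino acids, were at 22.3 and 45.7 FPKM in D6T- and at 3.18 and 9.64 FPKM in D6T+. Nup210, a nuclear pore protein, was at 39.8 FPKM in D6T- against 6.75 in D6T+, and Gpx2, a glutathione peroxidase of epithelia, at 28.0 FPKM in D6T- against 5.14 in D6T+. Atp2a3, a calcium pump of the endoplasmic reticulum, was at 38.4 FPKM in D6T- against 8.01 in D6T+.

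**Figure D3:**
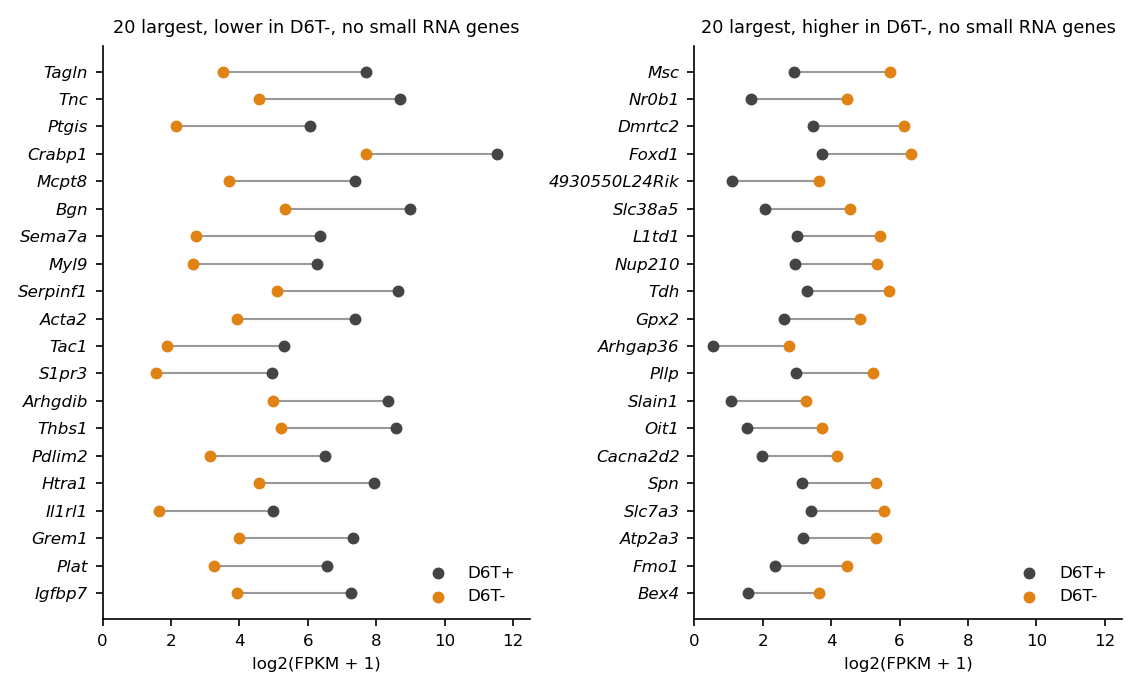
The 20 genes with the largest differences on each side, small RNA genes left out, as log2(FPKM + 1) (x axis) in D6T+ (dark points) and D6T- (orange points). The lower genes (left) are apart by -4.20 (Tagln) to -3.31 (Igfbp7) and the higher genes (right) by 2.81 (Msc) to 2.08 (Bex4).

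Small RNA genes took the extreme ranks. Mir6991, Mir5121, Snord35a, Snord16a and Mir7063 were the first 5 on the higher side and Mir1982 the first on the lower side. Mir6991 was at 828 FPKM in D6T- and listed at 0 in D6T+, and Mir1982 was at 726 FPKM in D6T+ and listed at 0 in D6T-. Of 13 genes at 5 FPKM or more in one fraction and listed at 0 in the other, LOC547349 (5.16 FPKM in D6T+) was the single one that is not a microRNA or snoRNA gene. The libraries were made from poly(A) RNA and such genes are shorter than a fragment, so these values are given without a fold.

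The genes that separate the fractions were also read in the other libraries. They were chosen for a high value in one day 6 fraction, which favours a lower value elsewhere, so these levels are a description. For the 1342 lower genes the median log2(FPKM + 1) was 4.70 in D0, 3.46 in D3, 4.23 in D6T+, 2.40 in D6T-, 2.55 in D9T- and 1.95 in iPSCs. D6T+ was within 2-fold of D0 for 924 of these genes (68.9%), and D6T- was at least 2-fold under D0 for 1109 (82.6%). Over all genes compared the same shares were 90.2% and 15.4%. D6T+ lay above D3 for 1110 of the 1342 (82.7%, against 51.6% of all genes compared) and at least 2-fold above it for 452 (33.7%, against 6.13%). Crabp1 had an FPKM of 6195 in D0, 116 in the unsorted cells of D3, 2953 in D6T+ and 206 in D6T-. Mcpt8, likewise, had 1201 FPKM in D0, only 21.5 in D3 and 166 in D6T+. Tagln did not share this order, with 974 FPKM in D0, 652 in D3 and 208 in D6T+, nor did Acta2, with 675, 575 and 166 FPKM. Tagln and Acta2 were at 279.7 and 152 FPKM in the iPSC library, above their D6T- levels. In the library of mouse embryonic stem cells they were at only 34.9 and 10.4 FPKM. In day 16 cells sorted as positive for the pluripotency marker SSEA-1 they were at 41.5 and 7.81 FPKM.

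For the 415 higher genes the median was 0.86 in D0, 2.31 in D3, 2.17 in D6T+, 3.75 in D6T-, 3.85 in D9T- and 2.63 in iPSCs. In D0, 223 of them were under 1 FPKM (53.7%, against 9.45% of all genes compared). D6T+ was within 2-fold of D3 for 340 of them (81.9%, against 92.3% of all genes compared), and D6T- at least 2-fold above D3 for 232 (55.9%, against 4.70%). In iPSCs 198 were at least 2-fold lower than in D6T- (47.7%, against 17.3% of all genes compared) and 66 at least 2-fold higher (15.9%, against 10.3%). Foxd1, Dmrtc2, Slc38a5 and Fmo1 were all at least 2-fold higher in D6T- than in D6T+ and at 0.290, 0.629, 0.0734 and 0.0578 FPKM in iPSCs. Nr0b1, Tdh, L1td1 and Bex4 were at 90.9, 419, 121 and 102 FPKM there.

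**Figure D4:**
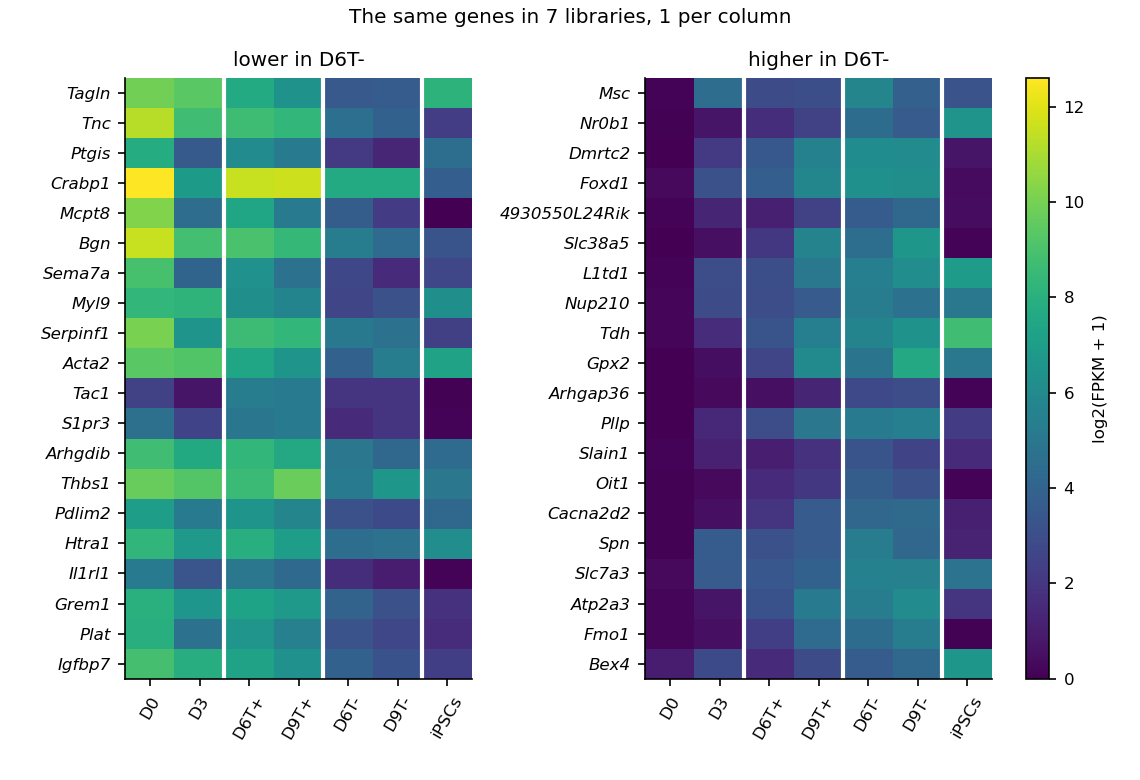
The genes with the 20 largest differences on each side, small RNA genes left out, in 7 libraries, as log2(FPKM + 1) on the colour scale. Each column is 1 library and white lines separate D0 and D3, the Thy-1+ fractions, the Thy-1- fractions and iPSCs. The genes lower in D6T- (left) are higher in both Thy-1+ fractions than in both Thy-1- fractions, and the genes higher in D6T- (right) are at or below 1.03 FPKM (Bex4) in D0.

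The day 9 fractions are separate libraries of the same sort and show the same contrast 3 days later. There, 914 of 12204 genes (7.49%) were at least 2-fold lower in D9T- than in D9T+ and 257 (2.11%) at least 2-fold higher. Of the 1342 genes lower on day 6, 770 were also lower on day 9, which is 57.4% of the day 6 genes and 84.2% of the day 9 genes. Of the 415 genes higher on day 6, 66 were also higher on day 9, which is 15.9% of the day 6 genes and 25.7% of the day 9 genes. The sign was kept by 1318 of the lower and 379 of the higher genes. How many of all genes compared kept their sign was not counted, so nothing is read from these numbers. The median difference of the lower genes was -1.49 on day 6 and -1.14 on day 9, and that of the higher genes 1.26 and 0.60. Across the 11602 genes that passed the filter on both days, Pearson's r of the 2 differences was 0.819, a description across genes that share libraries.

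Medians of the lists were also taken on day 9. The median was -2.17 for the list of other collagens, -1.65 for cytokines, -0.95 for contractile genes and -0.80 for SRF and YAP targets. It was 0.70 for junction genes, 0.63 for replication genes and 0.66 for pluripotency regulators. The matrix and cytokine medians were thus near those of day 6. Nearer to 0 than on day 6 were the contractile, the SRF and YAP and the pluripotency medians, and also those of insulin-like growth factor genes (-0.39) and of the 4 reprogramming factor genes (0.33, from 1.34). Acta2 was at 40.2 FPKM in D9T- and 92.2 FPKM in D9T+. Foxd1 was at 72.6 and 54.8 FPKM and Dmrtc2 at 67.1 and 44.7 FPKM, so both were by then abundant in the Thy-1+ fraction as well.

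**Figure D5:**
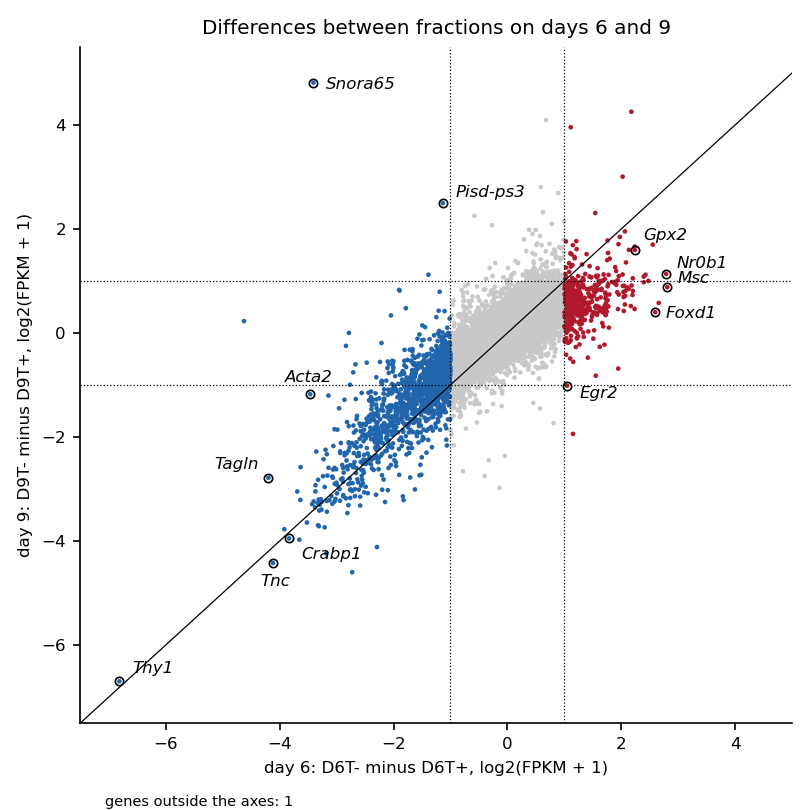
Difference between Thy-1- and Thy-1+ cells on day 6 (x axis) and day 9 (y axis), both on the log2(FPKM + 1) scale, for 11602 genes, with 1 gene outside the axes. Dotted lines mark 2-fold, the solid line equal differences, and colours the genes 2-fold lower (blue) or higher (red) on day 6. Lower genes such as Tnc and Crabp1 lie near the solid line, whereas higher genes such as Foxd1 and Msc lie below it.

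Markers of other cells were looked at because a Thy-1- gate also passes any cell that never carried Thy-1. None of 9 erythroid markers reached 1 FPKM, with summed levels of 0.876 FPKM in D6T- and 0.726 FPKM in D6T+. Of 19 leukocyte markers 4 reached 1 FPKM, with sums of 25.0 and 25.2 FPKM over all 19. Of these 4, 2 had a difference above 0 and 2 below 0. In D6T- 7 markers were listed at 0, in D6T+ 2, and 2 in both. The pan-leukocyte gene Ptprc was under the filter, at 0.425 FPKM in D6T- against 0.0866 in D6T+. Laptm5, the single one of the listed leukocyte markers at least 2-fold higher, was at 9.83 FPKM in D6T- against 3.78 in D6T+. Spn (CD43), a leukocyte surface gene outside the list, was at 38.8 FPKM in D6T- against 7.84 in D6T+. It was at 0.0635 FPKM in D0 and 11.6 FPKM in D3. Of 14 endothelial markers 5 reached 1 FPKM (sums 36.8 and 42.6 FPKM), with Kdr at 0.569 FPKM in D6T- against 0.781 in D6T+. The single mast cell or basophil marker of 9 that passed was Mcpt8, at 12.0 FPKM in D6T- against 166 in D6T+, whereas Fcer1a was at 0 FPKM in D6T- against 0 in D6T+. Muscle markers summed to 57.4 and 59.4 FPKM (12 of 18 passed), neural and glial markers to 303 and 256 FPKM (8 of 15), and adipocyte markers to 26.7 and 61.7 FPKM (4 of 8). Cartilage and bone markers summed to 143 FPKM in D6T- and 809 FPKM in D6T+, of which Spp1 (osteopontin) held 132 and 803 FPKM. The part of such cells in the differences was not tested.

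Promoters of the genes that separate the fractions were searched for short motifs, in windows of 250 bases before to 50 after a RefSeq start (GRCm38.p6), the first window listed per gene. A window was at hand for 294 of the 415 higher genes, 974 of the 1342 lower genes and 9030 of all genes compared. TGANTCA, the AP-1 motif, was in 8.52% of the lower, 4.76% of the higher and 4.94% of all. TATAAA was in 10.2%, 7.48% and 6.80% in that order, the E-box CACGTG in 7.80%, 9.86% and 10.6%, and the GC box GGGCGG in 64.9%, 61.6% and 67.0%. Both strands were read and none of these motifs contains another. A further 7 motifs were searched after the values had been seen. The octamer ATGCAAAT of POU factors was in 1.54% of the lower, 4.42% of the higher and 1.45% of all genes. The cAMP element TGACGTCA was in 1.23%, 3.40% and 3.3001%, the E2F motif TTTCCCGC in 1.13%, 3.40% and 2.14%, and the interferon response element (a pair of GAAA runs 2 bases apart) in 4.62%, 2.38% and 2.85%. The TEAD motif GGAATG was in 12.8%, 15.6% and 11.8%, CCAAT in 33.1%, 39.1% and 38.2%, and the CArG box in 1.85%, 1.36% and 1.34%. A match is a run of letters and says nothing of binding.

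The windows with AP-1 matches among the lower genes with the largest differences are shown first, since they belong to genes named above for matrix breakdown (Mmp3) and the cornified envelope (Sprr1a), and to Efemp1, which encodes the matrix protein fibulin-3 and was at 16.8 FPKM in D6T- against 164 in D6T+. The first match began 154, 146 and 46 bases before the start of Efemp1, Sprr1a and Mmp3. Capitals mark the AP-1 matches, and sequences run 5′ to 3′ on the strand of the gene.
Efemp1 (chr11:28852955-28853254, plus strand): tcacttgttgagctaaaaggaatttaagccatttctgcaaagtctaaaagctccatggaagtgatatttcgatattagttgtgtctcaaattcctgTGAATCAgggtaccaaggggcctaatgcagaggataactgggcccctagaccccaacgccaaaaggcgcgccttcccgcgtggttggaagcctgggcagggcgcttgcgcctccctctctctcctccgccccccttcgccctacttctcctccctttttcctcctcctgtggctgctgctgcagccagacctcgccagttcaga
Sprr1a (chr3:92485832-92486131, minus strand): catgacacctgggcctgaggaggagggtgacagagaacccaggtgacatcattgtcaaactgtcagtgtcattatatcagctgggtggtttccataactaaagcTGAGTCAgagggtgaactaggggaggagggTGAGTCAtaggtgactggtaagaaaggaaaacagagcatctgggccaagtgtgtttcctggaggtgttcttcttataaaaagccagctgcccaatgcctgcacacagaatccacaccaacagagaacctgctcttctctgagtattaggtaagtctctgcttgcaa
Mmp3 (chr9:7445572-7445871, plus strand): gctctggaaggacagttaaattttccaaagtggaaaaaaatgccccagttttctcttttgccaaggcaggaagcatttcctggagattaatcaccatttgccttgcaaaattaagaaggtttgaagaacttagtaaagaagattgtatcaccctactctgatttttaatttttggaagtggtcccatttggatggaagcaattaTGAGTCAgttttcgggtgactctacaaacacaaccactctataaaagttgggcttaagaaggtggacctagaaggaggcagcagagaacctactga

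Of the 13 higher genes with an octamer, Pim2, a kinase of the Pim family, and the epithelial factor Elf3 are shown as a pair with 2 matches and 1 match. Pim2 was at 70.5 FPKM in D6T- against 16.4 in D6T+. Capitals mark the octamer in either orientation.
Pim2 (chrX:7878056-7878355, plus strand): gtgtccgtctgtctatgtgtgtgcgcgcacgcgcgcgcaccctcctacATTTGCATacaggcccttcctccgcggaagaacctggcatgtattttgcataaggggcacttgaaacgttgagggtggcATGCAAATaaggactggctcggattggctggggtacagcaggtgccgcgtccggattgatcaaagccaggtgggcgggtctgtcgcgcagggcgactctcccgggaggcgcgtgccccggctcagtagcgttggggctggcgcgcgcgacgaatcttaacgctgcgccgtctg
Elf3 (chr1:135258423-135258722, minus strand): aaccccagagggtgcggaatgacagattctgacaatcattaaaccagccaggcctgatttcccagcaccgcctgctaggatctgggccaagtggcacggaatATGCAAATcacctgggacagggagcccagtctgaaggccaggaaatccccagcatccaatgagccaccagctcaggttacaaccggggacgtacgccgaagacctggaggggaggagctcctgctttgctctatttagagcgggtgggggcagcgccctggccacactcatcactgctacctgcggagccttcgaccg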

How the data were processed

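Poly(A) RNA of 12 libraries, 1 per condition, was sequenced on a HiSeq instrument, with TruSeq kits (stranded per the labels). The authors mapped reads to mm9 with STAR, removed reads with mismatches above a limit or with several loci, and deposited FPKM per gene from cuffdiff with an interval for each, without stated versions or annotation. Genes with near-identical copies lose reads by the last step. Absolute depth is unknown, and relative depth was taken from the most common ratio among 3023 genes under 0.5 FPKM in both fractions.

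Values were compared as log2(FPKM + 1) in genes at 1 FPKM or more in either fraction, with no test. A further 12 columns of status words, 1 per library, were not used. Positions come from GENCODE M1 (mm9). Python 3.11.15, numpy 2.4.6 and pandas 2.3.3 were used, and the counting was tested on data made with known differences. The 52 gene lists (967 of 969 entries found) and the choice of the comparison were made with earlier results of these data known. Genes named are list members, the 20 largest differences per side without Thy1, OSKM and loci under 300 bases in the deposited table (which gives small RNAs inside a host gene a longer locus), and genes at 5 FPKM or more in one fraction and 0 in the other. The ranking without small RNA genes, Sned1, Rrbp1, 4930429B21Rik, Efemp1, Pim2 and Col25a1 were chosen after values were seen. Promoter windows come from RefSeq (GRCm38.p6). Alternatives were another pseudocount, filter, scaling, locus length and threshold.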

Additional observations from a re-analysis of the deposited data

Results flagged for a closer look

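For 5 genes the fractions were at least 2-fold apart in opposite directions on days 6 and 9, which was not tested. Snora65 differed by -3.41 on day 6 (0 FPKM in D6T-, 9.61 FPKM in D6T+) and by 4.81 on day 9 (27.1 FPKM in D9T-, 0 FPKM in D9T+). It is a snoRNA gene shorter than a fragment, with an interval of 0 to 1724 FPKM in D6T+, so no fold is read from it. Pisd-ps3, a pseudogene, differed by -1.13 and 2.498. 2610528A11Rik differed by -1.39 and 1.12. Raver1-fdx1l, a readthrough transcript, differed by 1.15 and -1.94. Egr2, an early growth response factor, differed by 1.05 and -1.01, with 5.76 FPKM in D6T-, 2.27 FPKM in D6T+, 10.5 FPKM in D9T- and 22.2 FPKM in D9T+.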

How the results depend on the processing

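A pseudocount of 0.1 gave 736 higher and 1759 lower genes, and a share of 23.1% of higher genes also higher on day 9. Setting each pair of libraries to the same total FPKM gave a share of 21.6%. A threshold of 4-fold gave 41 higher and 349 lower genes. Equal totals, the median of ratios, a filter of 5 FPKM, no filter and loci of at least 1000 bases left both counts within 1.5 times of the reported ones, from 312 to 499 higher and from 1057 to 1399 lower. Taking the filter away could not change the counts. A gene under 1 FPKM in both fractions cannot reach 2-fold on the log2(FPKM + 1) scale. List medians moved by more than 0.25 in 20 of 50 lists under the pseudocount of 0.1, to -2.76 (other collagens), -2.43 (cytokines and chemokines), -2.31 (matrix proteases and inhibitors), -2.09 (fibroblast matrix proteins), -2.03 (contractile and actin genes), -1.98 (SRF and YAP target genes), -1.70 (FGF and PDGF ligands and receptors), -1.66 (Wnt ligands, antagonists and targets), -1.55 (cadherins), -1.47 (complement and innate secreted genes), -1.44 (integrins), -1.44 (adipocyte markers), -1.30 (retinoid genes), -1.29 (mesenchymal transcription factors), -0.79 (endothelial markers), 0.88 (skeletal muscle markers), 1.22 (epithelial adhesion and junction genes), 1.59 (pluripotency regulators), 1.74 (other epithelial regulators and proteases), 1.98 (pluripotency and germline downstream genes). Under the filter of 5 FPKM 12 of 47 moved, to -2.43 (cytokines and chemokines), -2.21 (FGF and PDGF ligands and receptors), -2.20 (matrix proteases and inhibitors), -1.99 (fibroblast matrix proteins), -1.76 (BMP ligands, antagonists and Id genes), -1.68 (TGF-beta ligands, receptors and feedback genes), -1.20 (Wnt ligands, antagonists and targets), -1.16 (mesenchymal transcription factors), -1.14 (retinoid genes), -0.73 (skeletal muscle markers), 1.58 (pluripotency and germline downstream genes), 1.68 (other epithelial regulators and proteases). Under equal totals 1 of 50 moved, to -1.73 (fibrillar collagens), and under the median of ratios none of 50. The sign of a median changed for glycolysis and hypoxia genes under equal totals and for skeletal muscle markers under the filter of 5 FPKM. Of 801 ranked genes and list members, none moved by 0.25 under either scaling and 191 did under the pseudocount. None of the 335 that were 2-fold apart changed sign. Neither result under scaling could differ, because the scalings shift D6T- by only 0.0666 and -0.0378. A changed pseudocount cannot turn a sign. Of the other 466, 7 changed sign under equal totals and 8 under the median of ratios, Etv4, H3f3b and Plod2 among the latter, and none of these genes was more than 0.0514 from 0 in the reported values. With any window of a gene in place of the first, a choice made after seeing the data, AP-1 was in 11.7%, TATAAA in 12.3% and the GC box in 69.9% of the lower genes, against 6.29%, 8.55% and 71.0% of all. No replicate could be left out and no paired analysis was possible because each fraction had 1 library. Absolute depth is unknown, and the spread between cultures or sorts was not measured.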

Other observations

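Retinoid genes did not move as 1 group. Retinol is oxidised to retinoic acid by ALDH1A enzymes and degraded by CYP26 enzymes, and its carriers and receptors include RBP, CRABP and RAR proteins. Of 15 genes that passed the filter 7 were at least 2-fold lower in D6T- and 1 higher (median -0.74, and -1.30 with a pseudocount of 0.1). Besides Crabp1, the retinol importer Stra6 was at 1.66 FPKM in D6T- against 13.04 in D6T+, the degrading enzyme Cyp26b1 at 6.10 FPKM in D6T- against 25.5 in D6T+, and the retinal reductase Dhrs3 at 8.23 FPKM in D6T- against 28.3 in D6T+. Crabp2 was at 252 FPKM in D6T- against 229 in D6T+ and did not follow its paralog. Aldh1a1 was higher, at 12.8 FPKM in D6T- against 3.89 in D6T+, and the receptors Rara and Rarg were within 2-fold, at -0.09 and -0.60.

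Imprinted growth genes were lower in 8 of 14 cases and higher in none (median -1.04), and the median was -0.04 on day 9. The noncoding RNA H19 was at 27.0 FPKM in D6T- against 199 in D6T+, next to its neighbour Igf2 at 5.13 FPKM in D6T- against 27.4 in D6T+. Of the Meg3 cluster, Meg3 was at 24.8 FPKM in D6T- against 51.5 in D6T+ and Rian at 8.47 FPKM in D6T- against 21.5 in D6T+. Grb10 was at 111 FPKM in D6T- against 89.2 in D6T+ and Mest at 6.26 FPKM in D6T- against 3.09 in D6T+. Hox genes, which record the position of the fibroblasts in the embryo, were at least 2-fold lower in 2 of 27 cases and higher in none (median -0.22). Over all genes compared these shares were 11.2% and 3.48%. The 2 lower Hox genes were Hoxb9, at 4.42 FPKM in D6T- against 15.6 in D6T+, and Hoxc8, at 2.67 FPKM in D6T- against 7.26 in D6T+. Of the other members, those of the HoxA and HoxD clusters lay between -0.29 (Hoxd8) and 0.72 (Hoxa9).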
